A study of Mus musculus with 6 samples.

Results

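The genes described here build ribosomes: subunits of RNA polymerase I (Pol I) and its transcription factors, the proteins of small nucleolar ribonucleoproteins (snoRNPs), and assembly factors of the small and the large ribosomal subunit. The members are 40 genes, chosen by gene symbol from a list of such factors, and all 40 were found among the 24786 gene symbols measured. They were compared between Raw264.7 macrophages carrying a control shRNA (sh-NC, 3 libraries) and those carrying an shRNA against *Etv5* (sh-*Etv5*, 3 libraries). Beside the members, the transcripts of *Myc* and of proliferation genes were followed, to see in which direction each moved.

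Raw264.7 is a mouse macrophage line that was established from a tumor induced by Abelson murine leukemia virus. The labels give a strain of C57BL/6 and an age of postnatal day 21, and neither entry was checked for this line. Both groups received lentivirus, and their labelled genotypes are control for sh-NC and *Etv5* knockdown for sh-*Etv5*. The labels put the measurement of gene expression at 24 or 48 h after infection and name Lipofectamine, whereas the study's methods describe a puromycin selection of infected cells and its text calls the sequenced cells stably transfected. Which of the study's shRNAs was sequenced, and whether each library had an infection of its own, is not given in the sources used here. For this reason n counts libraries. Each p-value sets the difference between the group means against the spread between libraries of a group, which may be technical.

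Ribosome production starts in the nucleolus, where Pol I transcribes the long precursor of the 18S, 5.8S and 28S ribosomal RNAs. SnoRNPs of the box C/D and box H/ACA classes then methylate this precursor and convert some of its uridines to pseudouridine, and large sets of assembly factors fold it, cut it and load it with ribosomal proteins. The pathway is known to be raised by the MYC family of transcription factors and to be most active in dividing cells.

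All values are RPKM as the authors deposited them, that is reads counted per kilobase of a gene and corrected for the number of mapped reads in its library. RPKM summed over all genes ranged from 320462 to 322949 in the sh-NC libraries and from 330454 to 340257 in the sh-*Etv5* libraries. Read depth is unknown from RPKM and no counting interval could be given. Differences were tested with limma on log2(RPKM + 1), a scale that understates the change of low genes, for the 10738 genes with at least 1 RPKM in at least 3 of the 6 libraries. A gene was called at an adjusted p under 0.05. Over these genes the libraries of a group correlated at a Pearson r of 0.996 to 0.997, and libraries of different groups at 0.913 to 0.915. *Etv5*, on the minus strand of chromosome 16 (chr16:22381309-22439719, GRCm38), stood at 9.18, 9.89 and 9.39 RPKM in sh-NC against 5.19, 4.91 and 5.28 RPKM in sh-*Etv5*. Its level fell by 46.0% without overlap between the groups (log2 difference -0.78, SE 0.0565, limma adjusted p = 2.74e-07). Of the short stretches in annotated *Etv5* transcripts, taken as for the members below, 24.5% also occurred in transcripts of *Gm4798*. How reads from this shared sequence were assigned is not given in the sources used here. The level of *Etv5* left in sh-*Etv5* and the size of its fall are therefore less certain. Of 10 macrophage markers, 9 reached the filter and *Mertk* stayed at or under 0.0653 RPKM. Summed macrophage markers ranged from 4490 to 4616 RPKM in sh-NC and from 3587 to 3704 RPKM in sh-*Etv5*, with 4 called higher and 4 called lower. Of all genes tested, 33.3% were called higher and 41% lower. None of 6 fibroblast, 5 epithelial and 7 lymphocyte markers reached the filter. Of 6 neutrophil markers, *S100a8* alone did, at 0.123 to 0.491 RPKM in sh-NC and 15.5 to 19.7 RPKM in sh-*Etv5*, while *Ly6g*, *S100a9*, *Elane* and *Cxcr2* were listed at 0 in all libraries. The part of these shifts in the results on the members was not tested. In bulk RNA, fewer cells of a type and less RNA per cell cannot be told apart.

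Most genes of ribosome production were lower in sh-*Etv5* cells. Of the 40 members, 31 (77.5%) were called lower and 3 (7.5%) were called higher, where 41% of all genes tested were called lower and 33.3% were called higher. The other 6 members, *Polr1e*, *Rrp12*, *Noc3l*, *Rrp1*, *Brix1* and *Gnl2*, were not called. All 40 members passed the filter, none was below 5 RPKM in any library, and no member therefore entered through the group in which it was high. The log2 differences of the members ranged from -0.99 for *Nop10* to 0.48 for *Rrp9*, with a median of -0.29 and quartiles of -0.46 and -0.14. Over all genes tested the median was -0.05 and the quartiles were -0.34 and 0.28. With only genes of a mean of at least 5 RPKM kept, 3528 of 7795 were called lower and 2564 higher, with a median of -0.08. The groups did not overlap for 36 members, of which 32 were lower and 4 higher in sh-*Etv5*, beside 42.1% and 34.3% of all genes tested.

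The fall was shared by the 3 sh-*Etv5* libraries. Summed over the 40 members, the level was 2722, 2739 and 2715 RPKM in sh-NC and 2140, 2132 and 2184 RPKM in sh-*Etv5*, that is 2725 ± 12.2 against 2152 ± 27.9 RPKM (SD, n = 3 each). No sh-*Etv5* library came near the sh-NC range, and the sum fell by 21.0%. As a share of all RPKM in the library, the members made up 0.843%, 0.854% and 0.847% in sh-NC and 0.637%, 0.645% and 0.642% in sh-*Etv5*. Within the sh-*Etv5* libraries, 33, 33 and 32 of the 40 members lay below the sh-NC mean, with medians of -0.30, -0.27 and -0.28 on the log2(RPKM + 1) scale. The share of all genes tested that lay below their sh-NC mean was not worked out.

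**Figure D1:**
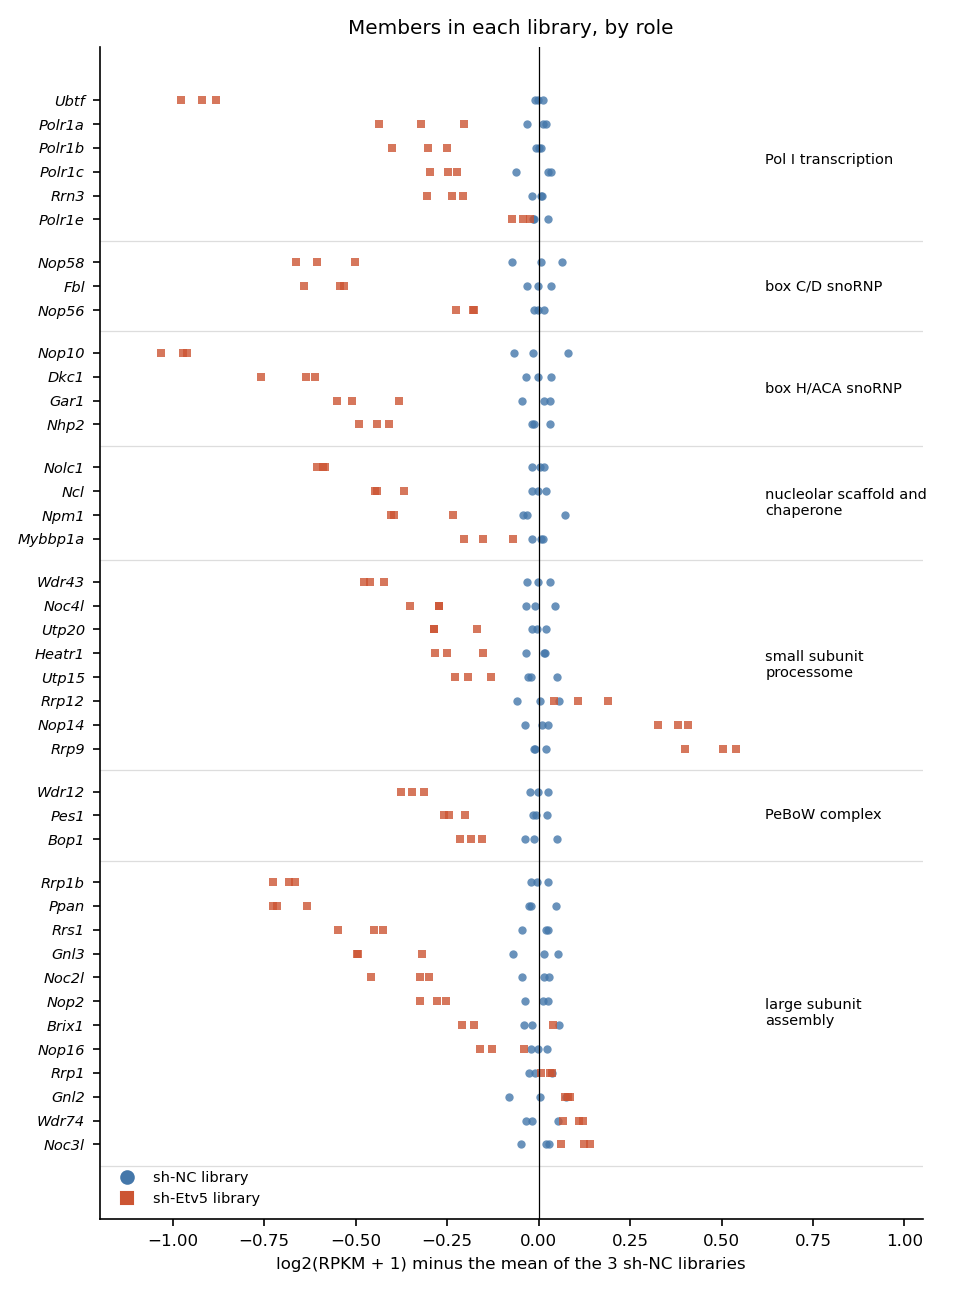
Each member in each library, as log2(RPKM + 1) minus the mean of the 3 sh-NC libraries on the horizontal axis, with members grouped by role. Circles are sh-NC and squares are sh-*Etv5* libraries, and most squares lie left of all circles, while *Rrp9* and *Nop14* of the small subunit processome lie to the right.

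Among the 6 genes of Pol I transcription, 5 (83.3%) were called lower, beside 41% of all genes tested, and *Polr1e* was not called. *Ubtf*, which encodes the upstream binding factor that coats ribosomal DNA and keeps it open, was at 50.2, 49.4 and 49.8 RPKM in sh-NC and at 24.8, 25.9 and 26.6 RPKM in sh-*Etv5* (chr11:102304560-102319742, minus strand). All sh-*Etv5* libraries lay far below all sh-NC libraries, and the mean went from 49.8 ± 0.404 to 25.8 ± 0.893 RPKM (SD, n = 3 each). With a log2 difference of -0.93 (SE 0.0386, limma adjusted p = 3.00e-09), *Ubtf* fell more than any other gene of this role.

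The catalytic core changed less. *Polr1a*, the largest subunit, was at 27.9, 26.9 and 27.8 RPKM in sh-NC and 21.8, 23.8 and 20.1 RPKM in sh-*Etv5*, a log2 difference of -0.32 (SE 0.0561, limma adjusted p = 0.000338). *Polr1b*, the second largest subunit, went from 15.5, 15.7 and 15.6 RPKM to 12.5, 13.0 and 11.6 RPKM, also a log2 difference of -0.32 (SE 0.0505, limma adjusted p = 0.000163). In both genes the highest sh-*Etv5* library stayed below the lowest sh-NC library. *Polr1c*, a subunit shared with RNA polymerase III, was at 28.2, 26.4 and 28.3 RPKM against 23.5, 22.3 and 23.1 RPKM, a log2 difference of -0.26 (SE 0.0436, limma adjusted p = 0.000277). *Rrn3*, the initiation factor TIF-IA that makes Pol I competent to start, was at 21.4, 21.8 and 21.9 RPKM against 17.4, 18.7 and 18.3 RPKM, a log2 difference of -0.25 (SE 0.0432, limma adjusted p = 0.000309). These genes also kept apart without overlap. *Polr1e*, a subunit that with its partner helps Pol I start and elongate, was the lowest of the members, at 5.57, 5.55 and 5.75 RPKM in sh-NC and 5.51, 5.30 and 5.42 RPKM in sh-*Etv5*. Its sh-*Etv5* values lay just below its sh-NC values, but the log2 difference of -0.05 (95% confidence interval -0.17 to 0.08) did not pass the test (limma adjusted p = 0.467).

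All members of both snoRNP classes were called lower, beside 41% of all genes tested. The box C/D particle carries the methyltransferase fibrillarin, encoded by *Fbl*, on a core of *Nop56* and *Nop58* proteins. *Fbl* was at 78.3, 80.2 and 76.6 RPKM in sh-NC and 53.9, 49.9 and 53.4 RPKM in sh-*Etv5*, and *Nop58* was at 95.6, 101 and 105 RPKM against 63.1, 65.7 and 70.7 RPKM. Both fell by about the same extent, with log2 differences of -0.57 (SE 0.0397, limma adjusted p = 1.83e-07) and -0.59 (SE 0.0487, limma adjusted p = 7.68e-07). *Nop56* was at 116, 113 and 114 RPKM in sh-NC and 101, 97.8 and 101 RPKM in sh-*Etv5*. It fell less, by 12.6% from 114 ± 1.13 to 99.9 ± 1.90 RPKM (SD, n = 3 each), with a log2 difference of -0.19 (SE 0.0317, limma adjusted p = 0.000212). No box C/D gene had overlapping groups.

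The box H/ACA particle pseudouridylates ribosomal RNA and is also part of telomerase. *Nop10*, its smallest core protein, showed the largest fall of all members, from 99.3, 92.9 and 89.6 RPKM in sh-NC to 47.4, 45.4 and 47.7 RPKM in sh-*Etv5* (chr2:112261926-112263269, plus strand). Its level fell by 50.1%, from 93.9 ± 4.93 to 46.8 ± 1.28 RPKM (SD, n = 3 each), a log2 difference of -0.99 (SE 0.0432, limma adjusted p = 4.22e-09). *Dkc1*, which encodes the pseudouridine synthase dyskerin, went from 46.6, 47.9 and 45.6 RPKM to 27.2, 29.7 and 30.2 RPKM, a log2 difference of -0.67 (SE 0.0459, limma adjusted p = 1.65e-07). Dyskerin's other partners moved in the same direction to a smaller extent. *Gar1* was at 53.5, 56.6 and 55.9 RPKM against 37.5, 38.5 and 42.2 RPKM (log2 difference -0.48, SE 0.0476, limma adjusted p = 3.52e-06). *Nhp2* was at 175, 175 and 181 RPKM against 130, 126 and 133 RPKM (log2 difference -0.45, SE 0.0340, limma adjusted p = 3.85e-07). In all 4 genes every sh-*Etv5* library was below every sh-NC library.

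The 4 nucleolar scaffold and chaperone genes were called lower as well, beside 41% of all genes tested. They include the most abundant transcripts of the members. *Npm1*, whose product nucleophosmin forms the granular outer phase of the nucleolus, was at 355, 381 and 352 RPKM in sh-NC and 275, 274 and 308 RPKM in sh-*Etv5*. The libraries of a group were spread more widely here than for most members, but the groups did not overlap (log2 difference -0.34, SE 0.0494, limma adjusted p = 7.47e-05). *Ncl*, which encodes nucleolin, was at 197, 203 and 199 RPKM against 146, 147 and 155 RPKM (log2 difference -0.42, SE 0.0337, limma adjusted p = 6.32e-07). *Nolc1*, the snoRNP chaperone Nopp140, was at 104, 103 and 101 RPKM against 67.3, 68.3 and 68.1 RPKM, and with a log2 difference of -0.59 (SE 0.0314, limma adjusted p = 1.95e-08) it fell most in this role. The smallest of these changes was in *Mybbp1a*, a nucleolar MYB-binding protein that also acts in ribosomal RNA processing. It was at 155, 152 and 155 RPKM in sh-NC and 138, 147 and 133 RPKM in sh-*Etv5*, a log2 difference of -0.14 (SE 0.0382, limma adjusted p = 0.00584), and lost its call when no filter on low values was used (adjusted p = 0.0511, 0.000766 to 0.0511 over the alternatives tried).

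The small subunit processome, the large particle that assembles on the newly made precursor around the U3 snoRNA, held the members with the largest rises beside members that fell. Of its 8 members, 5 (62.5%) were called lower, 2 (25%) were called higher and *Rrp12* was not called. Of all genes tested, 41% were called lower and 33.3% higher. *Wdr43* was at 54.3, 55.6 and 53.2 RPKM in sh-NC and 39.2, 38.8 and 40.3 RPKM in sh-*Etv5*, with no overlap, and its log2 difference was -0.45 (SE 0.0361, limma adjusted p = 5.79e-07). *Noc4l*, *Utp20*, *Heatr1* and *Utp15* were also called lower, with log2 differences of -0.30, -0.25, -0.23 and -0.18.

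*Rrp9* and *Nop14* rose. *Rrp9*, which encodes the protein that binds U3 snoRNA specifically, was at 37.8, 38.6 and 37.8 RPKM in sh-NC and 55.8, 54.4 and 50.6 RPKM in sh-*Etv5* (chr9:106475963-106485424, plus strand). All sh-*Etv5* libraries were above all sh-NC libraries, the mean went from 38.1 ± 0.488 to 53.6 ± 2.70 RPKM (SD, n = 3 each), and the log2 difference was 0.48 (SE 0.0423, limma adjusted p = 1.31e-06). *Nop14*, a processome protein that interacts with *Noc4l* protein, was at 31.3, 31.7 and 30.3 RPKM against 39.2, 41.6 and 40.8 RPKM (chr5:34638536-34660148, minus strand). It rose by 30.4% without overlap (log2 difference 0.37, SE 0.0393, limma adjusted p = 6.14e-06). *Rrp12*, a factor for export of the pre-ribosome, had overlapping groups of 20.0 to 21.7 and 21.5 to 23.9 RPKM (log2 difference 0.11, 95% confidence interval 0.002 to 0.23, limma adjusted p = 0.0625). It was called higher without sh-NC replicate 1 (0.14) and without sh-*Etv5* replicate 3 (0.15). Summed over the 8 members, the level was 242 to 247 RPKM in sh-NC and 236 to 245 RPKM in sh-*Etv5*, ranges that overlapped, whereas the summed levels of the other 6 roles did not overlap.

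*Rrp9* overlaps *Parp3*, a gene on the opposite strand that was itself higher, at 2.37 ± 0.120 RPKM in sh-NC and 5.83 ± 0.293 RPKM in sh-*Etv5* (SD, n = 3 each). Their exons overlap by 20 bases, 0.68% of the exonic bases of *Rrp9*. *Nop14* shares 144 bases, 5.27% of its exonic bases, with the antisense gene *Gm15522*, which is not among the gene symbols measured. Members called lower had such overlaps too. *Heatr1* shares 155 bases, 1.98% of its exonic bases, with *Lgals8* on the opposite strand. *Lgals8* was at 14.9 ± 0.475 RPKM in sh-NC and 32.3 ± 1.29 RPKM in sh-*Etv5* (SD, n = 3 each). Whether reads were counted by strand is not given in the sources used here, and the part of antisense reads in any member's value was not tested.

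The PeBoW complex, which large subunit assembly needs for processing of the 28S precursor, was called lower in full, beside 41% of all genes tested. *Wdr12* was at 23.6, 24.0 and 24.5 RPKM in sh-NC and 18.7, 18.3 and 19.2 RPKM in sh-*Etv5* (log2 difference -0.35, SE 0.0408, limma adjusted p = 1.53e-05). *Pes1* was at 56.9, 55.3 and 55.7 RPKM against 48.6, 46.7 and 47.1 RPKM (log2 difference -0.23, SE 0.0349, limma adjusted p = 9.77e-05). *Bop1* was at 80.1, 76.5 and 75.3 RPKM against 67.8, 69.3 and 66.5 RPKM (log2 difference -0.18, SE 0.0365, limma adjusted p = 0.000819). None of the 3 had overlapping groups, and *Wdr12* fell most of them.

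Of the 12 large subunit assembly factors, 7 (58.3%) were called lower, 1 (8.33%), *Wdr74*, was called higher and 4 were not called. Of all genes tested, 41% were called lower and 33.3% higher. The largest falls were in *Rrp1b*, *Ppan* and *Rrs1*. *Rrp1b*, a nucleolar protein that recruits protein phosphatase 1, was at 21.4, 20.9 and 20.6 RPKM in sh-NC and 12.8, 12.7 and 12.3 RPKM in sh-*Etv5*, and it fell by 39.9% (log2 difference -0.69, SE 0.0432, limma adjusted p = 7.68e-08). *Ppan*, the homolog of a yeast factor for 27S precursor processing, was at 111, 106 and 105 RPKM against 68.9, 65.0 and 64.6 RPKM (log2 difference -0.69, SE 0.0383, limma adjusted p = 2.84e-08). *Rrs1*, which helps bring the 5S particle into the large subunit, was at 76.3, 73.0 and 76.7 RPKM against 55.8, 51.2 and 54.8 RPKM (log2 difference -0.47, SE 0.0412, limma adjusted p = 1.19e-06). The sh-*Etv5* values of all 3 lay wholly below the sh-NC values. *Gnl3*, the GTPase nucleostemin that marks stem and tumor cells, had a log2 difference of -0.44, and *Noc2l*, the rRNA methyltransferase *Nop2* and *Nop16* had -0.36, -0.29 and -0.11.

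The remaining factors of the large subunit stayed close to their sh-NC levels. *Rrp1*, the paralog of *Rrp1b*, was at 94.9 ± 2.22 RPKM in sh-NC and 96.5 ± 1.09 RPKM in sh-*Etv5* (SD, n = 3 each), with overlapping groups and a log2 difference of 0.02 (95% confidence interval -0.05 to 0.10, limma adjusted p = 0.518), whose sign turned (-0.04) when libraries were rescaled to the same sum. *Gnl2*, the GTPase paralog of *Gnl3*, had 0.08 (-0.02 to 0.18, limma adjusted p = 0.134), *Noc3l* had 0.11 (-0.004 to 0.22, limma adjusted p = 0.0750) and *Brix1* had -0.12 (-0.26 to 0.03, limma adjusted p = 0.123). *Wdr74* was called higher by 0.10 (limma adjusted p = 0.0426), a call that held in only 8 of the 16 alternatives. It was lost when any of sh-NC replicates 2 and 3 and sh-*Etv5* replicates 1 and 3 was left out (0.08 to 0.09), and also without the filter, without the trend and with libraries rescaled to the same sum (0.04). *Brix1* was called lower without sh-*Etv5* replicate 3 (-0.19), and the call of *Nop16*, which held in 9 of the 16 alternatives, was lost without sh-NC replicate 2 or 3 or sh-*Etv5* replicate 2 (-0.11, -0.10 and -0.08).

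**Figure D2:**
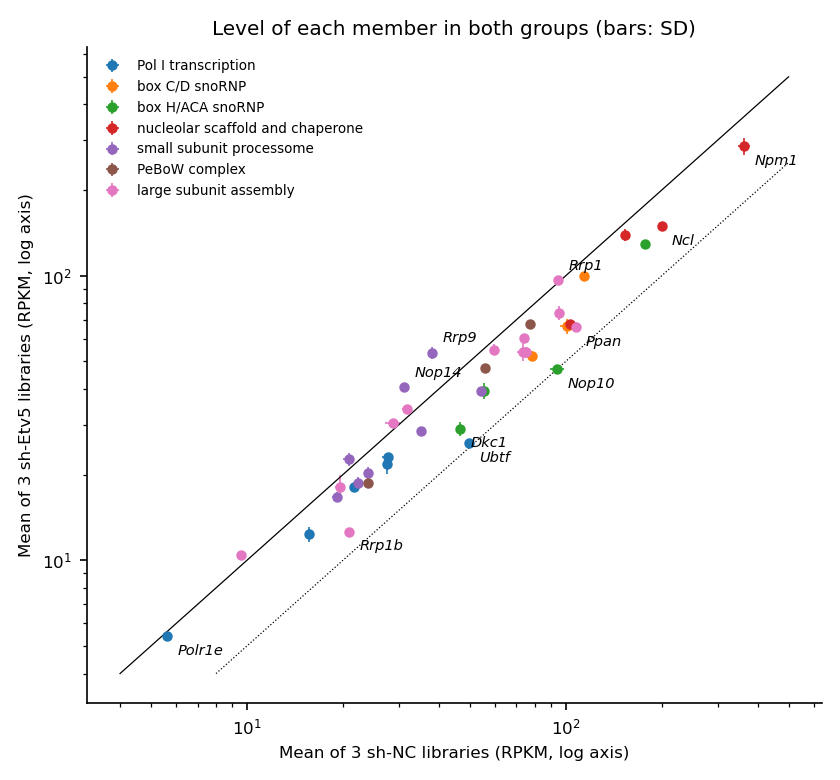
Mean RPKM of each member in the 3 sh-NC (horizontal) and 3 sh-*Etv5* libraries (vertical), both on log axes, with SD as bars and colors for the roles. The solid line marks equal levels and the dotted line 0.5 times the sh-NC level, which *Ubtf* and *Nop10* come closest to, while *Rrp9* and *Nop14* lie above the solid line.

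Genes that work together did not fall to the same extent. The following ratios of RPKM within a library do not change when all values of the library are multiplied by the same factor. Quantile normalization can change them. The pairs were chosen after the values were seen, so they are given without a test. *Ubtf* stood at 1.80, 1.84 and 1.79 times *Polr1a* in sh-NC and at 1.14, 1.09 and 1.32 times in sh-*Etv5*. Within the box H/ACA core, the ratio of *Nop10* to *Nhp2* went from 0.532 ± 0.0358 to 0.362 ± 0.00303 (SD, n = 3 each), and within the box C/D core the ratio of *Nop58* to *Nop56* went from 0.880 ± 0.0482 to 0.665 ± 0.0386. Between paralogs, the ratio of *Rrp1b* to *Rrp1* went from 0.221 ± 0.00303 to 0.131 ± 0.00363 and that of *Gnl3* to *Gnl2* from 2.56 ± 0.101 to 1.78 ± 0.138. *Rrp9* rose from 0.701 ± 0.00924 to 1.36 ± 0.0921 times *Wdr43*, and *Wdr12* went from 0.312 ± 0.0151 to 0.276 ± 0.0121 times *Bop1*. In none of the 7 ratios did the groups overlap, and the last had the smallest gap.

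**Figure D3:**
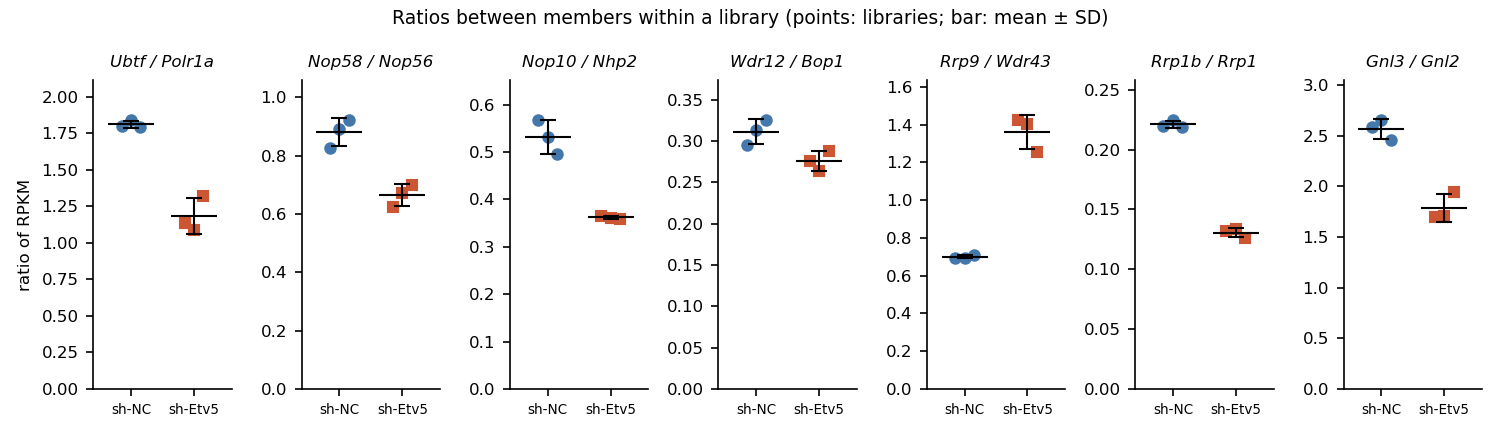
Ratios of RPKM between 7 pairs of members within each library, one panel a pair, with circles for sh-NC, squares for sh-*Etv5* and bars for mean ± SD (n = 3 each). The *Rrp9* to *Wdr43* ratio is higher in every sh-*Etv5* library and the other 6 ratios are lower.

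Across the 40 members, the sh-NC level and the log2 difference had a Pearson r of -0.37 and a Spearman rho of -0.40, a weak relation given as a description, since the members share the libraries and are not independent replicates. Some members share transcript sequence with other genes, and how reads from it were assigned is not given in the sources used here, so their values are less certain. Of the 50-base stretches in annotated transcripts, 24.3% for *Npm1*, 23.3% for *Pes1*, 19.7% for *Fbl*, 19.2% for *Noc2l* and 18.7% for *Nop56* also occurred in transcripts of another gene. The gene that shared most with *Npm1* was the processed pseudogene *Gm9118* (12.9% of stretches) and that with *Pes1* the processed pseudogene *Gm5910* (15.5%). For *Noc2l* the other gene was *Samd11*, which overlaps its exons on the opposite strand and had a log2 difference of -0.24, and for *Fbl* it was *Tulp4*, with -0.56. All 5 of these members were called lower. Without them, 26 of the other 35 members were called lower and 3 higher, beside 41% and 33.3% of all genes tested.

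A list of 136 further ribosome biogenesis genes was followed, and 73 (53.7%) of them were called lower and 24 (17.6%) higher, beside 41% and 33.3% of all genes tested. Their median log2 difference was -0.15, and that of all genes tested was -0.05. The RNA exosome and its cofactors, which trim the ends of precursors and degrade the spacers, came closest to the members, with 13 of 16 called lower, 1 called higher and a median of -0.36. *Exosc6*, *Exosc8* and *Exosc2* of its core had log2 differences of -0.90, -0.75 and -0.54. Of 53 other large subunit factors, 29 (54.7%) were called lower and 10 higher, and the largest falls were in the helicase gene *Ddx51* (-0.58) and in *Pelp1* and *Wdr18* (both -0.56), which act in the same complex of the pre-60S particle.

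Among 56 other small subunit factors, 26 (46.4%) were called lower and 12 (21.4%) higher, beside 41% and 33.3% of all genes tested. The share of lower calls was thus near that of all genes, and the share of higher calls was below it. *Riok3*, a kinase of late pre-40S particles, rose from 12.4 ± 0.428 to 29.3 ± 1.89 RPKM, and *Esf1*, a nucleolar factor for early processing, from 12.8 ± 0.241 to 26.1 ± 0.549 RPKM (SD, n = 3 each). Their log2 differences were 1.18 and 0.97, above that of any member, whereas *Dhx37*, a helicase that releases U3 snoRNA, had -0.72. Of 11 other Pol I factors, 5 (45.5%) were called lower, again near the share of all genes. The 1 (9.09%) called higher was below the 33.3% of all genes tested. *Baz2a*, which encodes the TIP5 subunit of a complex that silences ribosomal DNA, was the one called higher, from 5.48 ± 0.119 to 9.41 ± 0.306 RPKM (log2 difference 0.68, SE 0.0537, limma adjusted p = 5.25e-07). *Taf1c* of the promoter selectivity factor SL1 and the helicase gene *Ddx21* had log2 differences of -0.44 and -0.33.

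RNA polymerase III makes the 5S ribosomal RNA and the transfer RNAs. Of 22 genes of its machinery, 13 (59.1%) were called lower and 3 (13.6%) higher, beside 41% and 33.3% of all genes tested. These 22 genes had a median log2 difference of -0.23. *Brf1* of the initiation factor TFIIIB had a log2 difference of -0.69, and *Gtf3c5* and *Gtf3c2* of TFIIIC had -0.75 and -0.57.

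The libraries were made from polyA RNA, so ribosomal RNA itself is only a residue in them. *Rn45s*, the entry for the 45S precursor, was looked at after the values of the members were seen. It was at 356, 331 and 325 RPKM in sh-NC and 404, 412 and 388 RPKM in sh-*Etv5*, and was higher without overlap, whereas *Ubtf*, *Polr1a*, *Polr1b* and *Polr1c* were lower (log2 difference 0.25, SE 0.0408, limma adjusted p = 0.000191).

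The direction of *Myc* was opposite to that of the members. *Myc* (chr15:61985391-61990374, plus strand) was at 0.340, 0.381 and 0.303 RPKM in sh-NC and 11.7, 12.0 and 12.1 RPKM in sh-*Etv5*, a log2 difference of 3.27 (SE 0.0644, limma adjusted p = 7.42e-12). Every sh-*Etv5* library was far above every sh-NC library. *Myc* was below 1 RPKM in every sh-NC library, so it reached the test only through the group in which it was high. Its p-value is therefore not independent of how it was selected. In these cells, however, most MYC family transcript came from *Mycn* (chr12:12936093-12941914, minus strand), which was at 377, 364 and 368 RPKM in sh-NC and 215, 205 and 196 RPKM in sh-*Etv5*. *Mycn* fell by 44.4% without overlap, from 370 ± 6.43 to 205 ± 9.74 RPKM (SD, n = 3 each), with a log2 difference of -0.85 (SE 0.0383, limma adjusted p = 5.61e-09). *Mycl* was at or below 0.0294 RPKM in all libraries and was not tested.

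Taken as a sum, which was chosen after the values were seen, *Myc* and *Mycn* stood at 377, 364 and 368 RPKM in sh-NC and 227, 217 and 208 RPKM in sh-*Etv5*. The sum fell by 41.3%, and *Myc* made up 0.0902%, 0.105% and 0.0822% of it in sh-NC and 5.17%, 5.55% and 5.83% in sh-*Etv5*. RPKM is per length, so levels of different genes were set side by side here. The gene annotation and the use of strand behind them are not given in the sources used here, so the sum and the shares are approximate. Of 11 tested genes of the MYC network, 4 (36.4%) were called higher and 4 (36.4%) lower, near the 33.3% and 41% of all genes tested. *Max*, the obligate partner of all MYC proteins, was at 50.9 ± 0.579 RPKM in sh-NC and 50.7 ± 2.25 RPKM in sh-*Etv5* (log2 difference -0.01, 95% confidence interval -0.10 to 0.08, limma adjusted p = 0.852), and the sign turned under other scalings. *Mxd1*, an antagonist that binds *Max* protein, was at 0.831 to 1.14 RPKM in sh-NC and 2.59 to 2.66 RPKM in sh-*Etv5*. Its log2 difference was 0.85. Like *Myc*, *Mxd1* reached the test only through the group in which it was high, so no p-value is given for it. *Mnt*, another antagonist, had a log2 difference of -0.13 (95% confidence interval -0.28 to 0.03, limma adjusted p = 0.117).

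**Figure D4:**
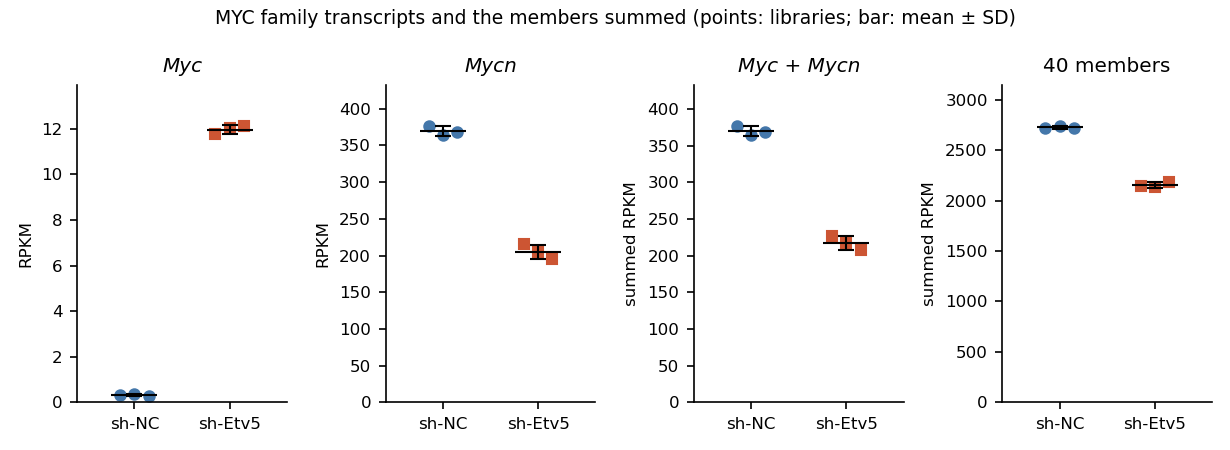
RPKM of *Myc* and *Mycn*, their sum and the sum of the 40 members in each library, one panel each with its own axis from 0, with circles for sh-NC, squares for sh-*Etv5* and bars for mean ± SD (n = 3 each). *Myc* alone is higher in sh-*Etv5*, and *Mycn*, both MYC genes summed and the members are lower.

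Known MYC targets outside ribosome biogenesis were called in both directions. Of 38 such genes 37 were tested, and 24 (64.9%) were called lower and 8 (21.6%) higher, beside 41% and 33.3% of all genes tested. These targets had a median log2 difference of -0.29, the same as that of the members. The rises among them were larger than any among the members. *Odc1*, the first enzyme of polyamine synthesis, went from 237 ± 3.35 to 1124 ± 9.42 RPKM (SD, n = 3 each), a log2 difference of 2.24, and the cyclin gene *Ccnd2* and the amino acid transporter chain gene *Slc3a2* had 1.64 and 1.50 (limma adjusted p = 2.61e-13, 8.65e-10 and 2.73e-11). The members had no rise above 0.48.

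Nearly all proliferation genes fell. Of 50, 48 (96%) were called lower and 0 were called higher by limma, beside 41% and 33.3% of all genes tested. At an unadjusted p under 0.05, and under each of the alternatives tried, 0 were called higher as well. The median was -0.84 with a range of -1.64 to 0.01. *Cenpa*, *Mki67* and *Birc5*, of the centromere, the mitotic chromosome surface and the chromosomal passenger complex, had log2 differences of -1.64, -1.64 and -1.62. Summed over the 50 proliferation genes, the level was 2737 to 2759 RPKM in sh-NC and 1455 to 1471 RPKM in sh-*Etv5*. Most members therefore shared the direction of *Mycn* and of the proliferation genes and not that of *Myc*, and their median lay between that of all genes tested and that of the proliferation genes. The lists were not tested against each other.

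**Figure D5:**
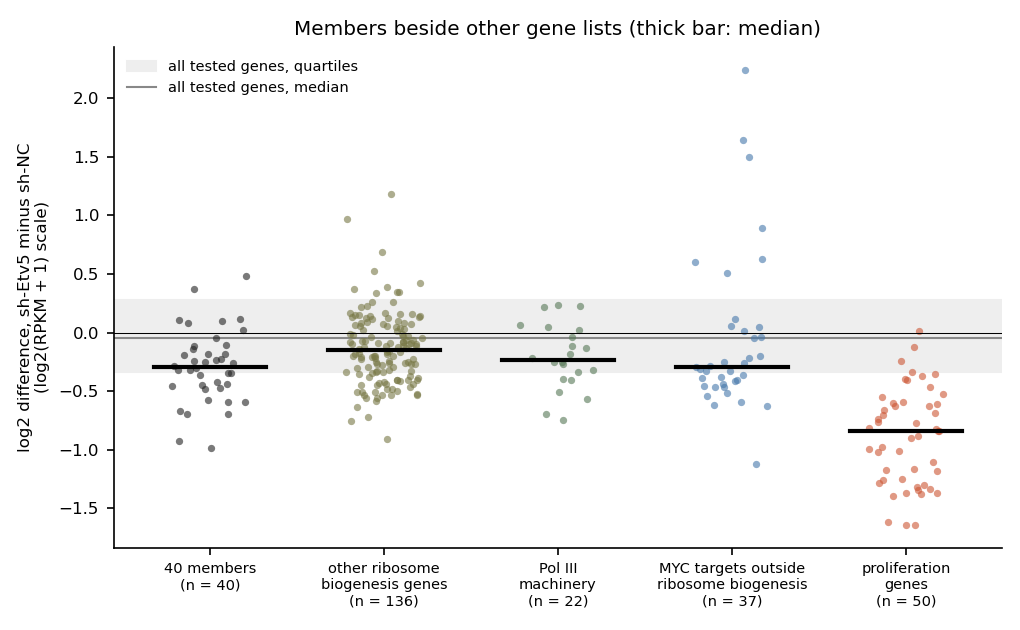
The log2 difference (sh-*Etv5* minus sh-NC, log2(RPKM + 1) scale) of each gene of the members and of 4 other lists, with thick bars for list medians and a gray band for the quartiles of all genes tested. The median is -0.29 for the members and for MYC targets, -0.15 for other ribosome biogenesis genes, -0.23 for Pol III machinery and -0.84 for proliferation genes.

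MYC and MAX bind the E-box CACGTG, and this motif was searched in RefSeq promoter windows (GRCm38.p6, 250 bases before to 50 bases after a gene's start). The motif reads the same on both strands. A window was found for 34 of the 40 members, and 6 (17.6%) of them held the motif, beside 12.4% of the 8317 tested genes and 8.1% of all 27025 genes with a window. The share was 20.2% of 114 other ribosome biogenesis genes, 29.4% of 34 MYC targets and 2.4% of 41 proliferation genes. The stretches of 30 bases around each match in a member are shown because they hold the letters that MYC family proteins are known to bind, with the motif in capitals, read 5′ to 3′ on the strand of the gene:
Rrn3, chr16:13780472-13780501, plus strand: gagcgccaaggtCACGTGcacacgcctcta
Rrn3, chr16:13780639-13780668, plus strand: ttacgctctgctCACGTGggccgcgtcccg
Mybbp1a, chr11:72441347-72441376, plus strand: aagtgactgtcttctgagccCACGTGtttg
Utp20, chr10:88826765-88826794, minus strand: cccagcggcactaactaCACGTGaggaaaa
Wdr43, chr17:71616220-71616249, plus strand: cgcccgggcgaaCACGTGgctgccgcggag
Pes1, chr11:3963965-3963994, plus strand: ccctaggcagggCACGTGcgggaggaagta
Nop2, chr6:125131811-125131840, plus strand: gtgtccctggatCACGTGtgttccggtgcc

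*Rrn3* held a pair of matches, at positions -215 and -48 from its start, and the others held 1 each, *Nop2* at -60 and *Pes1*, *Wdr43*, *Utp20* and *Mybbp1a* at 2, 17, 37 and 40. All 6 of these members were called lower, with a median log2 difference of -0.25 and a range of -0.45 to -0.14. Of all genes tested, 41% were called lower and 33.3% higher. Of the 28 members with a window and no match, 21 were called lower and 3 higher, with a median of -0.32. *Ubtf* and *Nop10*, with the largest falls, and *Rrp9* and *Nop14*, with the largest rises, were all among those 28. *Bop1*, *Fbl*, *Gnl2*, *Npm1*, *Rrp12* and *Rrs1* had no window in the table. A match describes these letters only, and binding was not measured in these libraries.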

How the data were processed

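PolyA RNA of 3 sh-NC and 3 sh-*Etv5* libraries of Raw264.7 cells was sequenced after preparation with the Illumina TruSeq RNA kit v2. The authors deposited RPKM values, 1 per gene symbol and library, which the column names show to come from coverage tracks. The submitters' processing notes name the build mm10, the same build as GRCm38, and the aligner, the gene annotation and the use of strand are not given in the sources used here. No common step lay behind the low RPKM values, so reads and depth could not be worked back from them. RPKM is relative to the library's total, and a few strongly expressed genes that change shift all others.

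Groups were taken from the sample labels. Genes with at least 1 RPKM in at least 3 of the 6 libraries were compared on log2(RPKM + 1) with limma (version 3.58.1, R version 4.3.3; two-sided moderated test, mean-variance trend on, no covariate), and Benjamini-Hochberg adjusted p-values under 0.05 over all genes tested were called. With 3 libraries a group, exact permutation gives no p below 0.1 and was not used. The scripts were tested on simulated data. Python 3.11.15, pandas 2.3.3, NumPy 2.4.6, SciPy 1.17.1 and Matplotlib 3.10.9 served for the summaries. Coordinates and shared transcript sequences were taken from GENCODE M21, and promoter windows from RefSeq.

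The 40 members and the gene lists, written from general knowledge, were chosen with earlier results of these data known. Values in every library were printed for all members of the Pol I, box C/D, box H/ACA, PeBoW and nucleolar scaffold roles, and for the 3 members with the largest difference in each of the other roles. They were also printed for *Etv5* and *Myc*. From each other list at most the 3 called genes with the largest difference were named, and *Mycn*, *Mycl*, *Max*, *Mnt* and *Mxd1*. *Rn45s*, the ratios, the sum of *Myc* and *Mycn*, marker genes at the filter and overlapping genes were named after values were seen. The alternatives tried were smaller pseudocounts (0.1 and 0.01), keeping every gene, keeping genes with a mean of 5 RPKM or more, rescaling to the same sum or by the median ratio, quantile normalization, eBayes without trend, a replicate block, each library left out, and stricter thresholds.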

Additional observations from a re-analysis of the deposited data

How the results depend on the processing

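The fall of most members held under every alternative short of a threshold on size. Between 26 and 32 members were called lower and 2 to 6 higher, the 26 coming from an alternative, chosen after seeing the data, that left out the 5 members sharing sequence with other genes. When a log2 difference above 0.5 in size was also required, 8 members were called lower and 0 higher. Quantile normalization gave 5 and rescaling by the median ratio 6 members called higher, against 3, since *Gnl2*, *Rrp12* and *Noc3l* passed under one or both. Leaving out each library gave 30 to 32 members called lower and 2 to 4 higher, with medians of -0.30 to -0.27. The median of the members was -0.35 with libraries rescaled to the same sum, -0.25 with quantile normalization and -0.25 with the median ratio, while that of all genes tested was -0.10, -0.07 and -0.00. Other ribosome biogenesis genes called higher numbered 14 with the same sum, 15 at an adjusted p under 0.01 and 4 with the size threshold, which also left 15 of them and 6 MYC targets called lower. The difference of *Rrp1* turned to -0.0367 with the same sum, and that of *Max* to 0.0374 with quantile normalization and to 0.0369 with the median ratio. Leaving out each library gave -0.0440 to 0.0136 for *Max*, with 0.00465 without sh-*Etv5* replicate 2 and the highest without sh-*Etv5* replicate 1. Apart from thresholds, 29 of the 31 lower calls (the exceptions being *Mybbp1a* and *Nop16*) and 2 of the 3 higher calls (*Rrp9* and *Nop14*) held in all 16 alternatives. Rescaling by genes outside the 10 strongest, also chosen after seeing the data, moved no count by over 1.5 times. Libraries with the same replicate number did not deviate together more than others. Their correlations were 0.0739, -0.071 and -0.0352, and those between different numbers were -0.0711 to 0.105. With 3 libraries a group this cannot exclude that the numbers pair them. With the number as a replicate block, 31 members were called lower and 3 higher, but *Rrp12* took the place of *Wdr74* among the higher calls, and 75 other ribosome biogenesis genes lower and 24 higher. Depth limits are unknown, since RPKM holds no counts.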
